A study of Bombyx mori with 2 samples.

Results

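The 200 most abundant spliced loci of the larval wing buds of the silkworm *Bombyx mori* were examined in 2 RNA-seq libraries. One library was made from hindwing buds and the other from forewing buds, dissected from fourth-instar larvae of the Daizo strain reared on mulberry leaves, with 80 buds pooled for each. The labels name no treatment and no mutation, so the libraries share strain, stage and rearing and differ by wing bud. There was 1 library per wing bud, so the spread between animals was not measured, wing bud and library cannot be told apart, and no p-value is given. Transcripts assembled in either library were taken as one locus if any exon base was common to them on that strand, which gave 25992 loci. A multi-exon transcript was present in both libraries at 10423 of them, called spliced loci here. Their level was counted as fragments per 1000000 mapped fragments (FPM). This measure is not divided by transcript length, so that a long transcript collects more fragments than a short one at the same number of molecules. The 200 members are the spliced loci with the highest mean FPM of the 2 libraries, 1.92% of all spliced loci. Level therefore chose the members, and exonic length entered the choice through FPM. Both are given as descriptions with no test.

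Wings of moths grow as folded epithelial sacs inside the larva, the forewing bud in the second and the hindwing bud in the third thoracic segment, and the Hox protein Ultrabithorax distinguishes the hindwing from the forewing. In most animal tissues a small set of genes supplies a large part of the messenger RNA, typically the genes of ribosomal proteins, translation factors, cytoskeletal proteins and mitochondrial enzymes. The study asked which genes differ between the wing buds. The assembled loci carry numbers in place of gene names, and no member could be tied to a gene, so each is given by scaffold, first and last base and strand, as deposited. Neither the genome build nor an annotation of these scaffolds was given in the sources used here, so exons are those of the assembled transcripts, and coding parts and UTRs were not analysed here. No marker gene of wing epithelium, trachea or haemocytes could be looked up, and the labelled tissue was not checked.

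The depth estimated from the deposited bounds was 43528000 mapped fragments in hindwing and 37193000 in forewing. Assembled transcripts held 97.3% of these fragments in hindwing and 97.5% in forewing. The members were thus deeply covered: the lowest rested on 15080 fragments in hindwing and 10381 in forewing. Counting error was small at this depth, but PCR copies were not marked, so all intervals cover counting error only. Median FPM of the members was 1114 in hindwing and 1142 in forewing, against 24.6 in both libraries for the 10223 other spliced loci.

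The members, few as they are, supplied a large part of the RNA in both wing buds. They held 32.4% of all assembled fragments in hindwing (exact 95% interval 32.42 to 32.45%) and 32.6% in forewing (32.63 to 32.66%). Of the fragments in spliced loci they held 38.0% in both libraries. The share was steep at its head: the first 10 members held 6.06% in hindwing and 6.16% in forewing, and the first 50 held 16.4% in both. Members ranked 101 to 200 added 8.43% in hindwing and 8.52% in forewing, about as much as the next 200 spliced loci, which held 8.61% in hindwing and 8.82% in forewing. The highest member had a mean FPM 26.5 times that of the lowest. To reach 50% of the spliced fragments took 450 loci in hindwing and 445 in forewing.

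**Figure D1:**
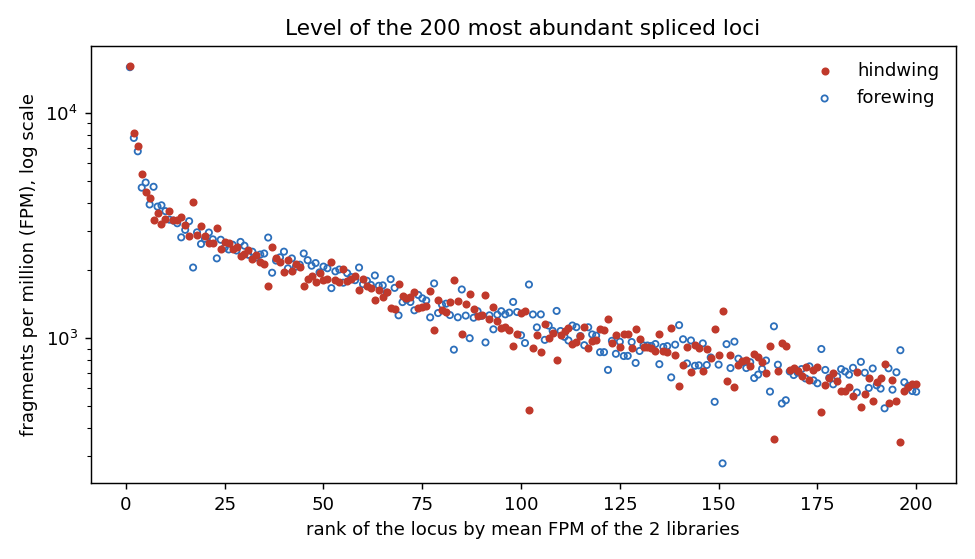
Level of each of the 200 members (y axis, FPM on a log scale) against its rank by mean FPM (x axis), with 1 filled point per locus for the hindwing library and 1 open point for the forewing library. Hindwing values ran between 346 and 16161 FPM and forewing values between 279 and 15937 FPM, and most pairs of points lay close together.

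The most abundant member, a 2-exon locus on the plus strand of nscaf2674 from 614753 to 618341, had 16161 FPM in hindwing and 15937 FPM in forewing. It alone held 1.66% of the assembled fragments in hindwing and 1.63% in forewing. The second, with 3 exons on the minus strand of nscaf2511 from 5369230 to 5372506, had 8113 FPM in hindwing and 7739 FPM in forewing. Next came a locus with 15 exons on the minus strand of nscaf2770 from 890606 to 902076, which had 7145 FPM in hindwing and 6752 FPM in forewing. It was followed by one with 6 exons on the plus strand of nscaf3078 from 372926 to 376109, which had 5336 FPM in hindwing and 4659 FPM in forewing. The first locus stood well above the rest in both wing buds, and each of these 4 was slightly higher in hindwing.

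Below them the direction alternated. The fifth member, with 7 exons on the plus strand of nscaf3026 from 6536031 to 6541412, had 4465 FPM in hindwing and 4907 FPM in forewing, on an assembled transcript of 822 bases in hindwing and 757 bases in forewing. The sixth, with 10 exons at nscaf2176, bases 2843062 to 2853866 of the plus strand, had 4179 FPM in hindwing and 3923 FPM in forewing. The widest gap among the first 10 was at the seventh, with 3 exons on the plus strand of nscaf3072 from 975398 to 977728, which had 3357 FPM in hindwing and 4700 FPM in forewing, a log2 ratio of -0.49.

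The last 3 of the first 10 were also higher in forewing. The eighth, on the plus strand of nscaf2930 from 4746800 to 4755326, had 3607 FPM in hindwing and 3839 FPM in forewing. The ninth, with 5 exons on the minus strand of nscaf2888 from 8072260 to 8075832, had 3219 FPM in hindwing and 3890 FPM in forewing. The tenth, with 6 exons on the plus strand of nscaf2136 from 729143 to 733034, had 3385 FPM in hindwing and 3665 FPM in forewing. At the eighth the assembled ends differed at a like level. Its main spliced transcript was 5164 bases long in hindwing and 2110 in forewing. Its length-scaled level, the midpoint of the deposited interval of FPKM (fragments per kilobase of transcript and 1000000 fragments), was 690 in hindwing and 1819 in forewing.

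The limit of 200 fell where levels changed slowly. The last 5 members, ranked 196 to 200, had mean FPM between 605 and 616, and the first 5 loci outside had mean FPM between 567 and 604. Rank 196, at nscaf3058, bases 6153652 to 6180958 of the plus strand, had 346 FPM in hindwing and 886 FPM in forewing and is described below. Rank 197, on the plus strand of nscaf3026 from 2499011 to 2510495, had 587 FPM in hindwing and 639 FPM in forewing, and rank 198, on the plus strand of nscaf2053 from 83131 to 86427, had 606 FPM in hindwing and 615 FPM in forewing. Rank 199, on nscaf2948 from 682161 to 705709 with transcripts of both strands joined, had 629 FPM in hindwing and 584 FPM in forewing. Rank 200, with 3 exons on the minus strand of nscaf2829 from 1485139 to 1498943, had 630 FPM in hindwing and 580 FPM in forewing.

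Just outside, rank 201, with 2 exons on the minus strand of nscaf2216 from 67565 to 70902, had 401 FPM in hindwing and 808 FPM in forewing. Rank 202, on the minus strand of nscaf2983 from 509597 to 526842, had 504 FPM in hindwing and 694 FPM in forewing, and rank 203, on the plus strand of nscaf2770 from 1031240 to 1042061, had 521 FPM in hindwing and 656 FPM in forewing. Rank 204, on the minus strand of nscaf2847 from 789168 to 803540, had 545 FPM in hindwing and 590 FPM in forewing. Rank 205, with 9 exons on the plus strand of scaffold547 from 44332 to 69568, had 747 FPM in hindwing and 388 FPM in forewing. The limit thus separated loci of close mean level, and several of these 10 loci differed more between the wing buds than from their neighbours in rank.

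Which loci were most abundant was largely the same in both wing buds. Of the members, 190 were among the 200 highest spliced loci of the hindwing library alone and 191 among those of the forewing library alone, with 181 in both. The lowest a member stood in 1 library was rank 362 in hindwing and rank 456 in forewing. Across the 200 members, hindwing and forewing log2 FPM had a Pearson's correlation of 0.885, and Spearman's correlation was 0.864. These are descriptions over loci of 1 pair of libraries, and the members were chosen on the mean of the same values. Ranking by length-scaled level in place of fragments kept 160 of the 200 members with the interval midpoint and 155 with the deposited FPKM.

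**Figure D2:**
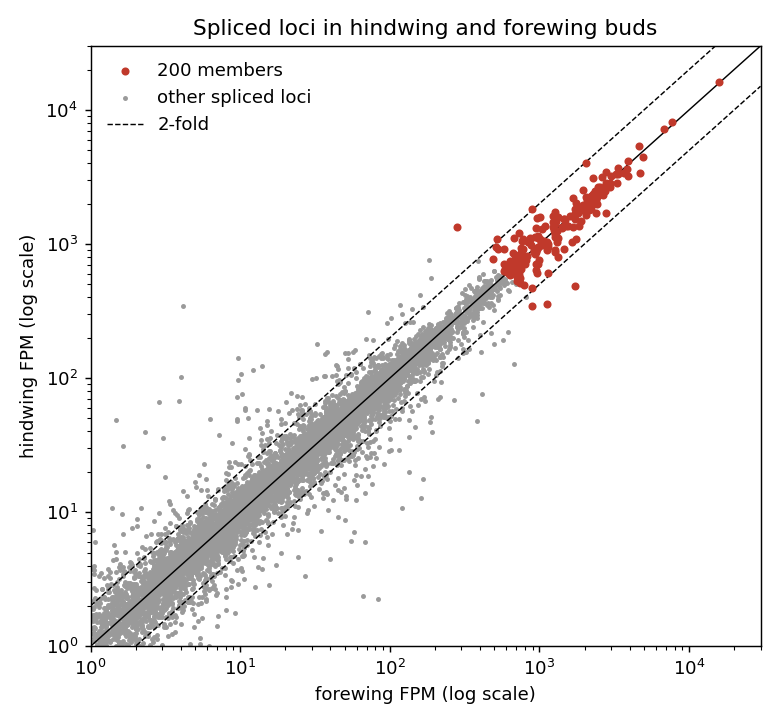
Hindwing FPM (y axis) against forewing FPM (x axis), both on log scales, for the 200 members (red) and the other spliced loci with at least 1 FPM in both libraries (grey). The solid line marks equal levels and the dashed lines 2-fold differences, and 6 members lay outside the dashed lines.

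Members were built compactly. Structure was taken from the most abundant multi-exon transcript of each locus. The median member had 4 exons, a span of 4585 bases and an exonic length of 1475 bases, against 5 exons, 6645 bases and 1859 bases in the other spliced loci. In the first 100 members the median span was 3755.5 bases and the median exonic length 1031.5 bases. In members ranked 101 to 200 they were 6878 and 1901 bases, above those of the other spliced loci. Exons made up a median of 28.6% of the transcript's span in members and 29.8% in the other spliced loci. The 200 spliced loci ranked next were much larger, with medians of 7 exons, a span of 11739 bases and an exonic length of 3261 bases. These values are descriptions, since exonic length enters FPM and therefore the choice. Over all spliced loci, Spearman's correlation of mean FPM with exonic length was 0.56, and in the members it was -0.20. How far the lack of length scaling in FPM enters these values was not tested.

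Size changed with rank within the members. Median exonic length was 1221 bases at ranks 1 to 50, 874 at ranks 51 to 100, 1655 at ranks 101 to 150 and 2261 at ranks 151 to 200. It stayed above 3000 bases at ranks 201 to 400, 401 to 1000 and 1001 to 3000, and was 1470 bases below those. Loci of up to 1000 exonic bases made up 37.0% of the members, against 25.6% of the other spliced loci and 6% of the next 200. Spans of up to 3000 bases made up 30% of the members, against 21.4% of the other spliced loci and 7.5% of the next 200. Members with only 2 exons were 16.0%, against 19.3% of the other spliced loci and 9.50% of the next 200.

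**Figure D3:**
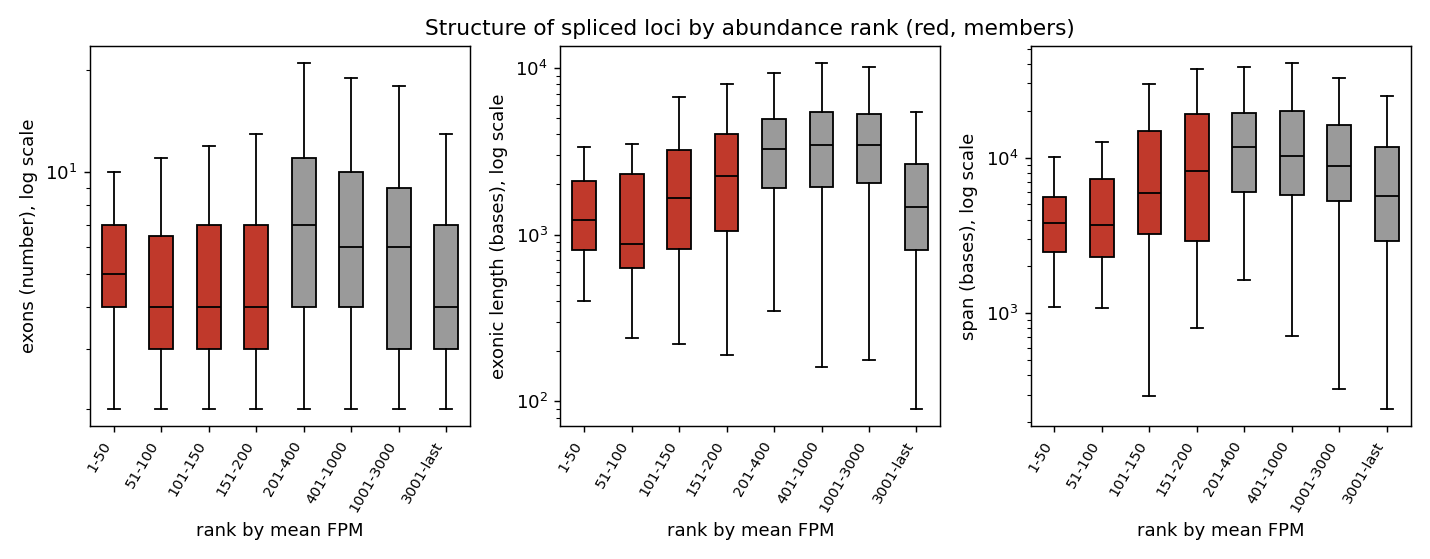
Number of exons, exonic length in bases and span in bases (y axes, log scales) of spliced loci by rank bin (x axes), in red for members and grey for lower ranks. Boxes show the quartiles with the median as a line, and whiskers reach the last value within 1.5 times the box height. The median exonic length was 1221 bases at ranks 1 to 50 and 3261 bases at ranks 201 to 400.

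Introns of the members were shorter as well, mostly in the first 100 members. The median over all 1048 of their introns was 581 bases, against 737 over 49940 introns of the other spliced loci and 630 over 1443 introns of the next 200. Introns of at most 1000 bases were 70.2% of the members' introns and 63.8% of those of the other spliced loci, while introns of 10000 bases or more were 2.86% of the members' introns and 4.08% of those of the other spliced loci. The first 100 members stood out within the set. Their introns had a median of 524 bases, against 647 bases in members ranked 101 to 200. Introns of at most 1000 bases were 76.0% in the first 100 and 63.7% in members ranked 101 to 200. Those of 10000 bases or more were 1.62% and 4.26%, so the later members lay near the other spliced loci in both shares. The first intron had a median of 340 bases in the first 100 members, against 1015 bases in members ranked 101 to 200. In members with at least 2 introns, the first intron was longer than the median of the others at 75 of 168 loci (44.6%), against 50.8% of the other spliced loci. Among the first 100 members this held at 28 of 88 loci, and among members ranked 101 to 200 at 47 of 80.

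Last exons were short too. The last exon had a median of 333 bases in the members, 526 in the other spliced loci and 1326 in the next 200. Within the members the median was 162 bases in the first 100 and 644 in those ranked 101 to 200, above the other spliced loci. The last exon was longer than the first exon in 58.5% of members, 62.0% of the other spliced loci and 78.0% of the next 200. This held in 47.0% of the first 100 members and 70.0% of those ranked 101 to 200. Internal exons, by contrast, had close medians, at 162 bases in members, 156 in the other spliced loci and 167 in the next 200. First exons had medians of 235.5 bases in members, 239 in the other spliced loci and 276.5 in the next 200. Last exons thus differed widely between the members and the next 200, and internal exons little.

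Length-scaled level separated the short from the long members. The 74 members of up to 1000 exonic bases held 36.6% of the members' FPM in hindwing and 36.7% in forewing, with a median interval midpoint of 2102 FPKM in hindwing and 2161 FPKM in forewing. The 23 members of over 5000 bases held 8.75% of the members' FPM in hindwing and 8.94% in forewing, with a median midpoint of 201 FPKM in hindwing and 132 FPKM in forewing. The 103 members between these lengths held 54.6% in hindwing and 54.3% in forewing. Spearman's correlation between midpoint FPKM and exonic length over the 200 members was -0.81, which is in part built in, because a short transcript must have a high FPKM to reach the limit in FPM.

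A few members were large. The most exons, 57 in both libraries, were at the locus on the minus strand of nscaf3071 from 739077 to 797851, which had 1707 FPM in hindwing and 2379 FPM in forewing. The longest exonic length, 16494 bases in 37 exons, was at the locus on the plus strand of nscaf2859 from 762519 to 824524, with 3352 FPM in hindwing and 3328 FPM in forewing, at rank 12. At least 20 exons were found in 6 members (3%, against 1.48% of the other spliced loci). A span of at least 50000 bases was found in 8 (4%, against 5.43%). An exonic length of at least 5000 bases was found in 23 (11.5%, against 12.7%).

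The extremes of span and length also show what an assembled model can be. The longest span, 225891 bases on the minus strand of nscaf2853 from 667082 to 892973, came from a single intron of 224614 bases between an outer exon of 40 bases in hindwing and 41 bases in forewing and 4 exons clustered at the other end. The same intron was assembled in both libraries, and the locus had 2231 FPM in hindwing and 2044 FPM in forewing. The shortest span, 295 bases, was that of the main spliced transcript at a locus on nscaf2943 from 2936651 to 2950745, which joined transcripts of both strands and had 867 FPM in hindwing and 1277 FPM in forewing. Only 5.08% of its hindwing FPM and 35.8% of its forewing FPM were in multi-exon transcripts. Such loci were few: under 50% of FPM was in multi-exon transcripts at 4 members in hindwing and 5 in forewing, and all of it was at 172 members in hindwing and 179 in forewing. The shortest exonic length, 189 bases, was at the locus with the largest ratio, described below.

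Both assemblies built most members alike. The main intron chain was the ordered set of introns of the most abundant spliced transcript. It was the same in both libraries at 154 members (77.0%), against 67.2% of the other spliced loci and 72.0% of the next 200. Of 1167 introns of the members in hindwing, 95.9% were also assembled in forewing, against 94.8% in the other spliced loci and 97.1% in the next 200. Of 1180 in forewing, 94.8% were also assembled in hindwing, against 93.0% in the other spliced loci and 94.5% in the next 200. In shared introns the members were thus near the other loci. A single transcript in both libraries was found at 103 members (51.5%), against 45.9% of the other spliced loci. Assembled length, weighted by level, was within 1.2 times between the libraries at 128 members (64.0%), against 61.0% of the other spliced loci and 67% of the next 200. The members lay on the minus strand in 113 cases and on the plus strand in 80, and 7 joined transcripts of both strands. In the other spliced loci minus and plus were near equal, at 49.6% and 49.0%. The spans of 14.5% of members shared bases with another locus, against 26.2% of the other spliced loci.

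The hindwing to forewing ratio of the members centred near 0. The log2 ratio of FPM, with 1 FPM added to both values, had a median of -0.03 over the members (quartiles -0.18 and 0.16), against 0.01 over the 10179 spliced loci with at least 1 FPM in a library. Values were higher in hindwing at 92 members and higher in forewing at 108. The median member differed 1.13-fold in either direction, against 1.12-fold over the 10179 loci. In RNA of whole pooled buds, fewer cells of a type and less RNA per cell cannot be told apart. A 2-fold difference was reached by 3 members higher in hindwing, where the background was 1.75% of the 10179 loci, and by 3 higher in forewing, where it was 1.83%. In either direction this was 3% of the members against 3.58% of all loci tested, a share near the background. At 1.5-fold, 12 members were higher in hindwing (background 4.97%) and 12 in forewing (5.71%), in all 12% against 10.7%.

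Members differed among themselves in this. At 1.5-fold, 8% of the first 100 members differed and 16.0% of members ranked 101 to 200, against 5.50% of the spliced loci ranked 201 to 400. The deposited intervals were apart at 88.0% of the members, against a background of 32%. With so many fragments the intervals of the members are narrow, and they were apart at 152 members that differed by less than 1.5-fold. All 3 measures, FPM, interval midpoint and deposited FPKM, gave a 2-fold difference in the same direction at 2 members higher in hindwing (background 0.678%) and 1 higher in forewing (background 0.707%). At 55 of the 200 members the sign by deposited FPKM was opposite to that by FPM, a share close to that of all loci tested, 2850 of 10179.

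Differences were fewer where the assembled transcripts were alike in length, in the members as in the other spliced loci. Among the 128 members of like assembled length, 2 were 2-fold higher in hindwing and 0 in forewing, and 8.59% differed 1.5-fold, against 7.02% of the other spliced loci of like length. Among the 72 of unlike length, 1 was 2-fold higher in hindwing and 3 in forewing, and 18.1% differed 1.5-fold, against 16.4% of the other spliced loci of unlike length. The members' shares lay near these backgrounds. The part of assembly in these ratios was not tested.

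**Figure D4:**
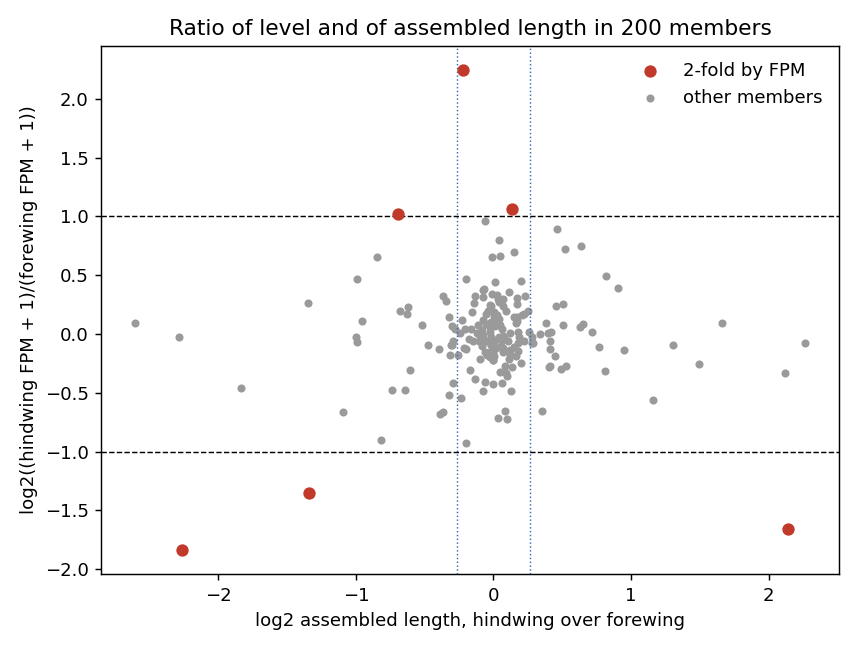
Log2 ratio of FPM, hindwing over forewing with 1 FPM added to both (y axis), against the log2 ratio of level-weighted assembled length, hindwing over forewing (x axis), for the 200 members. Dashed lines mark 2-fold in FPM and dotted lines 1.2 times in length, and of the 6 members beyond 2-fold (red), 4 lay outside the dotted lines.

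The 3 members higher in hindwing were all short. The largest ratio of all was at the locus on the minus strand of nscaf1898 from 8637908 to 8640632, which had 1328 FPM in hindwing and 279 FPM in forewing, a log2 ratio of 2.25. Its transcript had 3 exons and 189 bases in hindwing and 2 exons and 220 bases in forewing, and the deposited FPKM was 6948 in hindwing and 1265 in forewing. The locus on the plus strand of nscaf2511 from 5801131 to 5802634 had 1098 FPM in hindwing and 523 FPM in forewing, a log2 ratio of 1.07, on 505 bases in hindwing and 461 in forewing with the same introns. Its deposited FPKM differed less, at 2144 in hindwing and 1858 in forewing, and the forewing value lay above its own deposited bounds of 1112 and 1158. The locus on the plus strand of nscaf2829 from 3912808 to 3915604 had 1812 FPM in hindwing and 891 FPM in forewing, a log2 ratio of 1.02, and an FPKM of 7482 in hindwing and 2289 in forewing. At the nscaf2829 locus the transcript was 239 bases long in hindwing, with a first exon of 7 bases, and the forewing transcripts had 385 and 389 bases. The first and the last of these 3 loci are the 2 that passed by all 3 measures. Their hindwing transcripts were both shorter than 300 bases. With only transcripts of at least 300 bases kept, 1 member was 2-fold higher in hindwing.

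Next on the hindwing side, below 2-fold, were the locus on the minus strand of nscaf2529 from 1440880 to 1448233, with 4011 FPM in hindwing and 2061 FPM in forewing (log2 ratio 0.96), and the locus on the minus strand of nscaf3070 from 14574 to 34328, with 957 FPM in hindwing and 514 FPM in forewing (0.90). At the nscaf3070 locus an opposite-strand transcript with 345 FPM shared exon bases in forewing alone, and with it added the locus had 957 FPM in hindwing and 859 FPM in forewing, a log2 ratio of 0.16. The nscaf2529 locus stood at rank 17, the highest rank of any locus among these 10.

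The 3 members higher in forewing each differed in how far the transcript reached. On the minus strand of nscaf2886 from 10025 to 19874, FPM was 483 in hindwing and 1733 in forewing, a log2 ratio of -1.84. The main transcript had the same introns in both libraries, but its last exon was 72 bases long in hindwing and 2343 in forewing. In hindwing the bases beyond were assembled on the opposite strand, as part of a transcript with an exon from 7996 to 15284 and 1052 FPM. The library kit did not mark strand, and reads of a gene and of a partner on the opposite strand cannot be told apart. With the fragments of opposite-strand transcripts that share exon bases added, a measure chosen after seeing the data, the locus had 1535 FPM in hindwing and 1733 FPM in forewing, a log2 ratio of -0.17. Each such transcript was added whole. The one here had 8846 exonic bases between 2449 and 15284, so fragments from before the locus, which begins at 10025, were added in hindwing alone. By deposited FPKM the direction was the reverse, at 1119 in hindwing and 618 in forewing.

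On the plus strand of nscaf2888 from 8341756 to 8353625, FPM was 358 in hindwing and 1131 in forewing, a log2 ratio of -1.66. The 4-exon transcript shared its introns between the libraries and was 10985 bases long in hindwing and 2491 in forewing, with a last exon of 9031 bases in hindwing and 563 in forewing. In hindwing an opposite-strand transcript with 385 FPM overlapped it, and with that added the log2 ratio was -0.61. This was the member that passed by all 3 measures on the forewing side. At the nscaf3058 locus of rank 196, FPM was 346 in hindwing and 886 in forewing, a log2 ratio of -1.35. Its 10-exon transcript was 1789 bases long in hindwing and 4528 in forewing, and the deposited FPKM was 191 in hindwing and 193 in forewing.

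Below 2-fold on the forewing side came the locus on the minus strand of nscaf2993 from 96797 to 97779, with 472 FPM in hindwing and 897 FPM in forewing (log2 ratio -0.93), and the locus on the plus strand of nscaf3031 from 401997 to 408824, with 612 FPM in hindwing and 1145 FPM in forewing (-0.90). At the nscaf3031 locus the transcript was 3042 bases long in hindwing and 5369 in forewing, and midpoint FPKM was 201 in hindwing and 213 in forewing. Opposite-strand transcripts shared exon bases with 21 members, in both libraries at 11, in hindwing alone at 4 and in forewing alone at 6. Such transcripts were not counted at the other spliced loci. These counts therefore have no background and cannot be read as a trait of the members. Of the 6 members beyond 2-fold, 3 had such a transcript in 1 library alone, the third being the nscaf1898 locus with 27.2 FPM in forewing, where the log2 ratio with it added was 2.11. With the opposite-strand fragments added, 3 members were 2-fold higher in hindwing and 1 in forewing.

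Members were spread over 83 of the 596 scaffolds with a spliced locus, and 39 of these scaffolds held 1 member. The 13 scaffolds with at least 5 members held 79 of them. The top count of 8 was found on 3 scaffolds: nscaf1898 with 349 spliced loci, nscaf2511 with 139 and nscaf2888 with 342. On nscaf2511 the members held 73.1% of the FPM of its spliced loci in hindwing and 71.7% in forewing, and on nscaf1898 they held 33.2% in hindwing and 32.7% in forewing. At the other end, 14 of 64 scaffolds with at least 50 spliced loci had no member. Over scaffolds, Spearman's correlation between the numbers of members and of spliced loci was 0.56.

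Some members lay close together. Another member was within 50 kb of 35 members (17.5%), while a member was within 50 kb of 8.52% of the other spliced loci and 11.5% of the next 200. Within 10 kb the shares were 11.0% of members, 2.67% of the other spliced loci and 7.5% of the next 200, and within 100 kb they were 21.5%, 13.8% and 15.0%. On the order of spliced loci along scaffolds, 28 of 383 neighbours of members were members (7.31%), against 355 of 19271 neighbours of the other spliced loci (1.84%). Neighbours that were not members had a median mean FPM of 37.1 beside members and 26.0 beside the other spliced loci. These are counts over loci that share scaffolds, and no test was made of them. Over the 157 members joined from 1 assembler gene in each library the share within 50 kb was 12.1%, and over the 128 of like assembled length it was 7.81%, both counted among those fewer members. Whether some neighbouring members are parts of one gene that the assembler split was not tested.

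**Figure D5:**
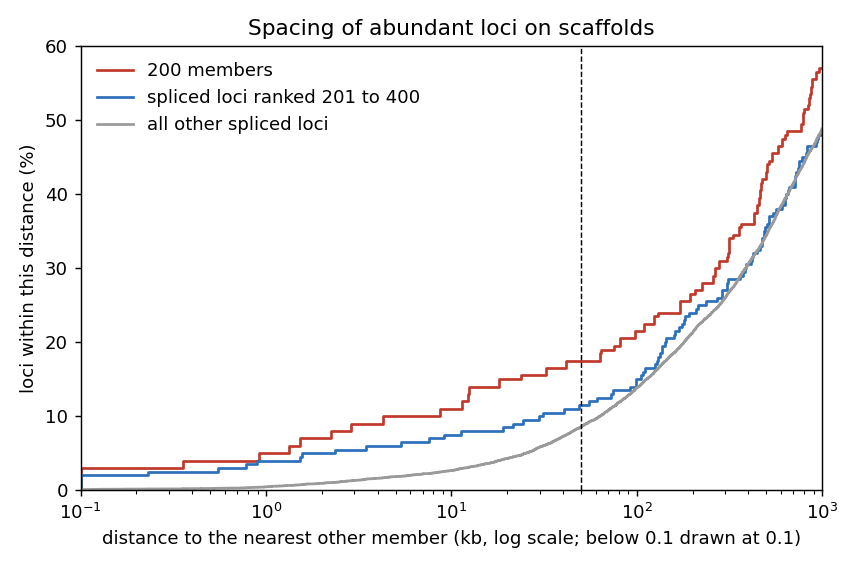
Share of loci (y axis, %) with another member within a given end-to-end distance on the same scaffold (x axis, kb, log scale), for the 200 members (red), the spliced loci ranked 201 to 400 (blue) and all other spliced loci (grey). At the dashed line of 50 kb the shares were 17.5% of members, 11.5% of the next 200 and 8.52% of the other spliced loci.

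The 35 close members formed 17 chains, 16 pairs and 1 group of 3. At 13 of the chains no other spliced locus lay between. The group of 3 lay on nscaf3074 between 176004 and 231249. Its first locus, on the minus strand to 178970, had 587 FPM in hindwing and 713 FPM in forewing. The next, on the minus strand from 181219 to 200681, had 1641 FPM in hindwing and 2061 FPM in forewing. The last, on the plus strand from 224387, had 1504 FPM in hindwing and 1483 FPM in forewing. The minus-strand loci, 2248 bases apart, were both higher in forewing, with log2 ratios of -0.28 and -0.33, and the plus-strand locus had a ratio of 0.02.

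Pairs held some of the most abundant loci. The first-ranked locus of nscaf2674 had as its neighbour, 4280 bases on, a 9-exon locus from 622622 to 637685 with 1703 FPM in hindwing and 1800 FPM in forewing. Elsewhere on nscaf2674, a minus-strand locus from 6455983 to 6460517 with 3449 FPM in hindwing and 2805 FPM in forewing lay 1333 bases from a plus-strand locus ending at 6465662 with 1839 FPM in hindwing and 1871 FPM in forewing. On nscaf2930 the eighth-ranked locus lay 12349 bases from another plus-strand locus, from 4728839 to 4734450, with 2313 FPM in hindwing and 2677 FPM in forewing. In these 3 pairs the loci differed more from each other than between the wing buds.

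In position and strand the pairs were mixed. Of the 16 pairs, 6 ran with the minus-strand locus before the plus-strand one, so that their starts faced each other. In 3 the order was the other way round, with their ends facing. Other spliced loci lay between at the nscaf2937 pair of the first kind and the nscaf1898 pair of the second. In 2 pairs both loci were on the plus strand and in 4 both were on the minus strand, and 1 pair held a locus of mixed strand. The spans of 6 members, in 3 of the pairs, overlapped. A pair of large loci, singled out after its values were seen, lay on the minus strand of nscaf3040 with 358 bases between its loci. Its loci had 38 and 33 exons, and FPM was 2552 in hindwing and 2452 in forewing for the one and 771 in hindwing and 490 in forewing for the other.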

How the data were processed

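RNA of 80 pooled hindwing buds and 80 pooled forewing buds was sequenced in 1 library each. Per the labels, a TruSeq kit with random hexamers was used, which leaves strand unmarked. In the study's methods, read pairs were mapped with TopHat and assembled with Cufflinks, and Cufflinks 2.1.1 and Cuffdiff are named by the submitters' processing notes. Each deposited assembly gives FPKM and confidence bounds per transcript, not scaled between libraries by the authors. The deposited score column, which orders a gene's forms, was not used. The build of the scaffolds was not given in the sources used here.

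FPM per transcript was the midpoint of the bounds times exonic length in kilobases, summed per locus. Deposited FPKM lay inside its own summed bounds at only 93 members in hindwing and 91 in forewing. It was over 1.1 times its interval midpoint at 27 members in hindwing and 28 in forewing. Depth was the number of fragments that made bounds of up to 30 fragments whole: 96.4% of 13371 hindwing and 96.2% of 9116 forewing bounds were whole within 0.05. Chains joined members with gaps of at most 50 kb. No rescaling was applied, since the median log2 ratio of all spliced loci was 0.01. Exact binomial intervals at 95% were computed for shares of fragments.

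Loci named are the first 10 by mean FPM, the 5 largest ratios in each direction, 5 on each side of the limit, extremes of structure and the 4 longest chains, ties going to the higher FPM. The members, rules and lists were chosen with earlier results of these data known. Other joining, ranking, lengths, distances and measures were tried as alternatives. Joining of transcripts and 2-fold calls were tested on simulated data drawn around forewing transcripts. Gene names, sequences and cell type markers were not used here. The tools were matplotlib 3.10.9, scipy 1.17.1, pandas 2.3.3, numpy 2.4.6 and Python 3.11.15.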

Additional observations from a re-analysis of the deposited data

How the results depend on the processing

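No paired analysis was possible because hindwing and forewing had 1 library each, and no library could be left out. Variation between animals was not measured, and the intervals cover counting error only. The members' share of assembled fragments, hindwing then forewing throughout, was 33.0% and 33.2% with joining on either strand, 30.3% and 30.6% when loci were ranked by midpoint FPKM, 29.3% and 29.8% by deposited FPKM, 24.0% and 24.1% with 100 members, 43.8% and 44.4% with 500, 32.4% and 32.8% with transcripts of at least 300 bases, 24.7% and 25.1% over the 157 members of 1 assembler gene in each library, and 31.6% and 31.8% over the 193 members of 1 strand, added after seeing the data. The 2-fold counts, hindwing then forewing, were 5 and 5 when ranked by midpoint FPKM and also by deposited FPKM, 1 and 0 with 100 members, 7 and 12 with 500, 10 and 10 for ratios of midpoint FPKM, 11 and 9 for deposited FPKM, and 12 and 12 at 1.5-fold. Joining on either strand gave 1 in forewing, adding opposite-strand fragments (added) gave 1, like assembled length (added) gave 0, and transcripts of at least 300 bases gave 1 in hindwing. Median exonic length was 949.5 bases when ranked by deposited FPKM and 2533.5 with 500 members, whose median span was 8190 bases. The share of members within 50 kb of another was 10% with 100 members, 25.6% with 500, 12.1% over members of 1 assembler gene, 7.81% over members of like length (added) and 11% at 10 kb. The nscaf2886 locus from 10025 was reversed by midpoint FPKM, at a log2 ratio of 0.42, and by deposited FPKM, at 0.86. Below 2-fold by midpoint and deposited FPKM were the nscaf3058 locus (-0.01 by both) and the nscaf2511 locus from 5801131 (0.94 and 0.21). With opposite-strand fragments added, the nscaf2886 locus stood at -0.17 and the nscaf2888 locus from 8341756 at -0.61. The causes were not tested, apart from settings that change the number of members or the length scaling by construction. The other 77 values of the comparisons stayed within set limits, which were wide. When ranked by deposited FPKM, median span was 3352 bases, and 150 of the 200 loci were among the 200 highest by FPM of hindwing alone. When ranked by midpoint FPKM, median exonic length was 1019 bases. Medians of the log2 ratio lay between -0.059 and -0.018, and the rest stayed within 1.5 times or within their counting spread.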

Other observations

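Loci that were not spliced in both wing buds lay outside the rule, and 15 of them reached the mean FPM of the lowest member. Together they held 3.84% of the assembled fragments in hindwing and 3.73% in forewing. The highest, on scaffold1570 from 1112 to 4011, had 12403 FPM in hindwing and 12694 FPM in forewing, above every member but the first. A second locus on scaffold1570, from 1 to 667, had 4060 FPM in hindwing and 4621 FPM in forewing, and one on nscaf1681 from 5881700 to 5888100 had 4391 FPM in hindwing and 3672 FPM in forewing. What these loci encode was not analysed here.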
